A study of Mus musculus with 6 samples.

Results

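The genes described here encode ATP-dependent nucleosome remodelers and the chromatin readers named with them, and their transcripts were compared between mouse embryonic stem cells (ESCs) and epiblast-like cells (EpiLCs). Members were taken by gene symbol: the SMARC, ACTL6, ARID, BCL7 and DPF genes, the CHD genes, the MTA and MBD genes, the INO80 genes and the BRD genes. This gave 67 of the 24736 genes in the expression table, of which 64 had enough counts to be tested. The cells were of the XY HM1 TetON mouse ESC line, used as wild type, so both groups share that one line and its TetON modification. ESCs were propagated on feeder fibroblasts in medium with 10% serum and 1000 U per ml LIF, and were sampled at 0 h. Whether feeders had been removed from the 0 h samples is not stated. EpiLCs had spent 48 h, per the labels, in serum-free N2/B27 medium with 10 ng per ml FGF and 5 µM LGK974, which blocks WNT secretion. Each group had 3 libraries, labelled as biological replicates. The paper states that data for its statistics came from at least 3 independent experiments. The labels do not describe the separate cultures, so the errors and p-values measure only the spread between these samples of that line.

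Nucleosome remodelers use ATP to slide, evict or exchange histones. BAF (SWI/SNF) complexes open chromatin at enhancers and promoters and are built from interchangeable paralogous subunits. ISWI motors space nucleosomes, NuRD joins a CHD motor to histone deacetylases, and INO80 acts on nucleosomes that hold the histone variant H2A.Z. Bromodomain proteins bind acetylated lysines on histones. In the early mouse embryo both BAF and NuRD are needed by pluripotent cells, and some paralogues within each complex are exchanged as cells take on tissue identities.

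The promoters of 3 members whose transcripts changed by more than 2-fold are shown first, Smarcd3 and Dpf3 because they fell most and Smarca1 because it rose. Each run is the 250 bases before a RefSeq transcript start on GRCm38.p6, the build of the files (mm10), written 5′ to 3′ on the minus strand with each CG dinucleotide in capitals.
Smarcd3, chr5:24602003-24602252: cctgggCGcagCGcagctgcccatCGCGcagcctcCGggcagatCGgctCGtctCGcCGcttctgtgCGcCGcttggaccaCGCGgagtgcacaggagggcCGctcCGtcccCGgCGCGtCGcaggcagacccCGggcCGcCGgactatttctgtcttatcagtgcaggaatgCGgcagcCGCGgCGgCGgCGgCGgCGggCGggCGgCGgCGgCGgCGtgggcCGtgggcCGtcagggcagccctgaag
Dpf3, chr12:83487737-83487986: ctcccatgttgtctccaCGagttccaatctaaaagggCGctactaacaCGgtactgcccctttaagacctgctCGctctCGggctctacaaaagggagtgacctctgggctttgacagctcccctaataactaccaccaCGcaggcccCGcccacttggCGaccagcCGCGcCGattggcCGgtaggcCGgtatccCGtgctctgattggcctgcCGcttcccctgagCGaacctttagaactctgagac
Smarca1, chrX:47892614-47892863: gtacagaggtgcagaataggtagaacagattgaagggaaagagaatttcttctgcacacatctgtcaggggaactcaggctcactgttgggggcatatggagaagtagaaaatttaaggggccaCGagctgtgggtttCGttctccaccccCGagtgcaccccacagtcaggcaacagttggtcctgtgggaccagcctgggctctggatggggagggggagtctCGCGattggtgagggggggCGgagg
The Smarcd3 window lies before a transcript start inside the gene, whose outermost annotated start is at 24624456, whereas the other windows lie before the outermost start. CG dinucleotides numbered 38 for Smarcd3, 16 for Dpf3 and 6 for Smarca1, against a median of 6 (interquartile range 2 to 16) over 32851 windows of this length for all genes and of 21 over 61 windows for 48 members. The letters CATTGT or CTTTGT, which SOX factors bind, occurred on either strand in 25.2% of all windows and in 8 of the 61 member windows (13.1%), but in none of the 3 shown. These letters are mostly A and T, member windows held more CG dinucleotides, and some member windows overlap. No background of like base content was drawn, so the difference in shares was not tested.

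Libraries held between 16967741 and 35096210 expected counts, so 3 counts corresponded to 0.0855 to 0.177 CPM. Libraries separated by state, with 78.5% of the variance on the first principal component. All 6 naive markers on the list used fell and all 5 post-implantation epiblast markers rose, the latter from a summed 293 to 399 TPM in ESCs to 2055 to 2125 TPM in EpiLCs. On the first components the ESC libraries were spread more widely than the EpiLC libraries, and ESC replicates 2 and 3 lay at opposite ends of the second component (11.4%). The summed level of 12 fibroblast markers was 251, 1145 and 89.8 TPM in ESC replicates 1, 2 and 3 and 39.4 to 74.3 TPM in EpiLCs, each of the 12 being highest in ESC replicate 2 and, among ESCs, lowest in replicate 3. None of the 12 was at 0 in every library, 11 could be tested, and 6 of these fell. Among the members, 12 had the same order of ESC levels (Bcl7b, Brd9, Chd3, Ino80b, Ino80c, Mbd1, Mbd2, Mbd3, Mbd5, Mta2, Smarca2 and Smarcc2). The share of all genes with this order was not determined, so the count shows nothing particular to the members. The part of fibroblasts in their levels was not tested. The study's methods describe a step in which feeder cells were left to adhere to plastic and so removed before differentiation. Markers of other cell types also differed between the states. Summed primitive streak markers were at 414, 159 and 124 TPM in ESC replicates 1 to 3 and 7.51 to 45.7 TPM in EpiLCs (4 of 5 fell), and primitive endoderm markers at 32.4 to 56.1 TPM in ESCs and 10.1 to 10.5 TPM in EpiLCs (4 of 6 fell). Neural markers were at 50.1 to 83.6 TPM in ESCs and 119 to 133 TPM in EpiLCs (1 of 4 tested rose, Tubb3, which made up nearly all of the sum). Their part in the members' changes was not tested either. With any 1 library left out, ESC replicate 1 included, the log2 changes of the 3 members that fell most ran from -3.78 to -3.43 (Smarcd3), -3.66 to -3.06 (Dpf3) and -2.55 to -2.24 (Arid5b). Values without a library are given below where its removal started or ended a member's call. In bulk RNA, fewer cells of a type and less RNA per cell cannot be told apart.

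As a class the remodelers were expressed in both states and were called about as often as other genes. Of the 64 tested members 19 rose, 13 fell and 32 did not pass an adjusted p of 0.05 in edgeR's quasi-likelihood test with Benjamini-Hochberg adjustment, so 32 of 64 were called, beside 45.4% of all 14468 genes tested. The share called higher was 29.7% against 22.6% of all genes, and the share called lower was 20.3% against 22.8%. Without ESC replicate 2 the counts were 16 higher and 18 lower, without ESC replicate 1 they were 11 and 13, and without EpiLC replicate 2 or 3 they were 12 and 12, so which direction held more members depended on single libraries. The members' median log2 fold change was -0.01, beside a median absolute value of 0.28, against 0.38 over all genes. Changes over 2-fold were seen in 6 members (9.38%, against 20.2% of all genes), 2 of them higher (8.78% of all genes) and 4 lower (11.5% of all genes). The members were also abundant, with a median over their mean levels of 29.6 TPM against 15.3 TPM, and 54 of them averaged at least 10 TPM. Among these 54, 46.3% were called and 5.56% changed over 2-fold, against 44.9% and 9.87% of the 8480 tested genes at that level, and the median absolute log2 change was 0.24 against 0.26. The median over mean levels was 49.3 TPM for these members and 37.7 TPM for these genes, and the difference in shares was not tested. ESC and EpiLC levels did not overlap for 36 of the 64 members (56.2%), a share near the 59.5% over all genes tested, and 4 of these 36 were not called (Smarcc1, Smarcd2, Arid1b and Ino80c).

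**Figure D1:**
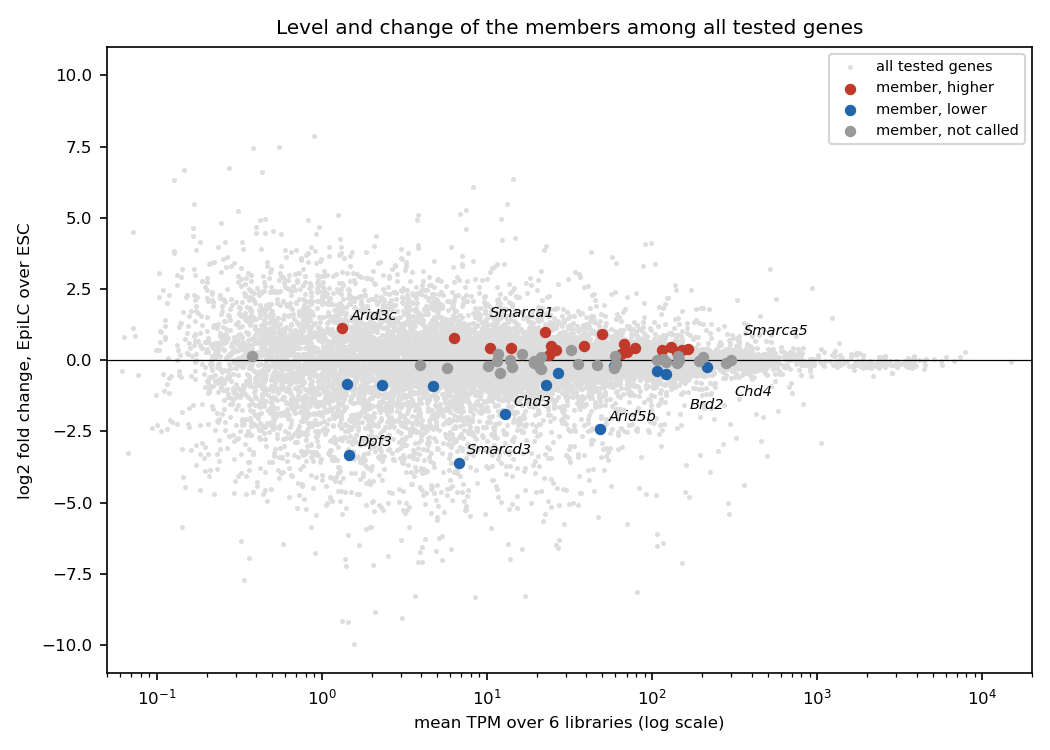
Mean TPM over the 6 libraries (log axis) against the log2 fold change of EpiLC over ESC for all 14468 tested genes (light grey) and the 64 tested members (red, higher; blue, lower; dark grey, not called). Smarcd3, Dpf3, Arid5b, Chd3, Smarca1 and Arid3c lie past a log2 fold change of 1 in size, while the 3 most abundant members, Smarca5, Chd4 and Brd2, lie near 0.

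The largest change among the members was the decrease of Smarcd3, which encodes BAF60C, a BAF subunit known for its part in heart and muscle development. Smarcd3 (chr5:24592622-24624456, minus strand) was at 10.6, 13.8 and 13.1 TPM in the ESCs and at 1.04, 0.830 and 1.32 TPM in the EpiLCs, in the order of replicates 1, 2 and 3, which is used throughout. All ESC values were above all EpiLC values, and the means were 12.5 ± 1.67 TPM in ESCs and 1.06 ± 0.246 TPM in EpiLCs (mean ± SD, n = 3 each). Smarcd3 fell 12.1-fold, a log2 change of -3.60 ± 0.24 (standard error, adjusted p = 1.33e-04). Its paralogues did not fall. Smarcd1, which encodes BAF60A, was at 127, 124 and 143 TPM in the ESCs and at 171, 165 and 183 TPM in the EpiLCs, and rose with a log2 change of 0.34 ± 0.08 (standard error, adjusted p = 0.015). Smarcd2, which encodes BAF60B, was at 55.5, 47.5 and 60.4 TPM in the ESCs and at 61.4, 66.2 and 64.9 TPM in the EpiLCs, a log2 change of 0.16 ± 0.10 (standard error, adjusted p = 0.223), and did not pass the test. Within the summed TPM of the 3 genes, the share of Smarcd3 was 5.46%, 7.41% and 6.04% in the ESCs and 0.446%, 0.359% and 0.530% in the EpiLCs, and that of Smarcd1 was 65.9%, 67.01% and 66.05% in the ESCs and 73.2%, 71.1% and 73.5% in the EpiLCs. Smarcd1 lost its call without ESC replicate 1 (adjusted p = 0.0657) and without EpiLC replicate 1 (adjusted p = 0.0516). BAF60 transcripts were thus mostly Smarcd1 in every library, and the Smarcd3 share in EpiLCs was under 1% throughout.

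Dpf3, which encodes BAF45C, a double-PHD-finger subunit that binds acetylated and methylated histone tails, was the other BAF gene that fell. It was at 3.42, 1.90 and 2.48 TPM in the ESCs and at 0.180, 0.300 and 0.470 TPM in the EpiLCs (chr12:83213751-83487736). The groups did not overlap, but the levels were low, with only 5 counts in the lowest library. The decrease was 9.95-fold, a log2 change of -3.31 ± 0.39 (standard error, adjusted p = 8.54e-04), and on the log2(TPM + 1) scale, which shrinks the change of low genes, it was -1.44. Dpf2 (BAF45D), the broadly expressed paralogue, was at 62.6, 59.2 and 64.1 TPM in the ESCs and at 76.0, 76.6 and 83.8 TPM in the EpiLCs and rose with a log2 change of 0.30 ± 0.07 (standard error, adjusted p = 0.0147). Dpf1 (BAF45B), known from neurons, was at 9.89, 11.98 and 10.3 TPM in the ESCs and at 8.98, 9.53 and 10.2 TPM in the EpiLCs and did not pass the test, a log2 change of -0.21 ± 0.13 (standard error, adjusted p = 0.229). The Dpf2 share of the 3 transcripts was 82.5%, 81.0% and 83.4% in the ESCs and 89.2%, 88.6% and 88.7% in the EpiLCs, with no overlap between groups. Dpf2 lost its call without ESC replicate 1 (adjusted p = 0.0539). Most BAF45 transcripts were thus of Dpf2 in every library.

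**Figure D2:**
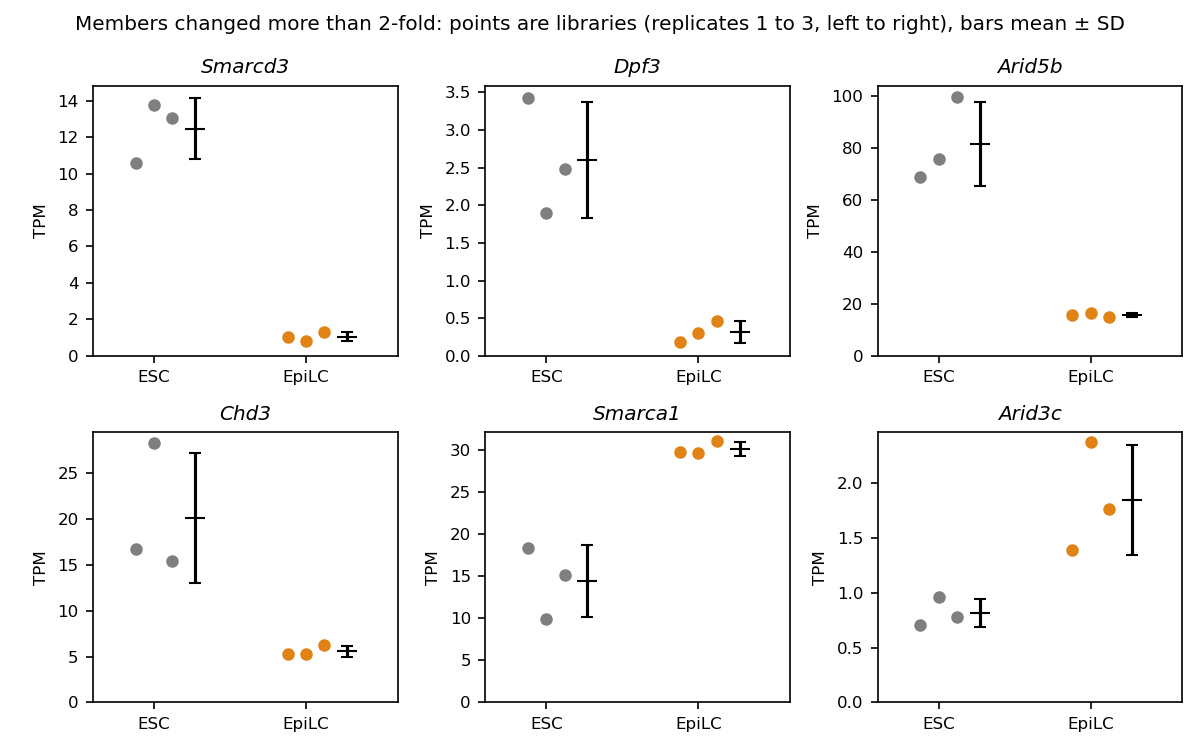
TPM in each library (linear axes from 0) for the 6 members that passed the test with a change over 2-fold, with libraries as points (ESC grey, EpiLC orange, replicates 1 to 3 from left to right) and the mean ± SD as black bars. Groups do not overlap in any panel, and in the Chd3 panel ESC replicate 2 lies above the other ESC libraries.

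Of 22 BAF genes 21 were tested, of which 7 rose, 2 fell and 12 did not pass, so 42.9% were called, near the 45.4% of all genes. The ATPase gene Smarca4 (BRG1) was at 154, 135 and 146 TPM in the ESCs and at 136, 141 and 141 TPM in the EpiLCs, a log2 change of -0.11 ± 0.06 (standard error, adjusted p = 0.192). Without ESC replicate 2 Smarca4 passed as lower (-0.16, adjusted p = 0.0395). Its paralogue Smarca2 (BRM) was far lower, at 6.36, 9.27 and 3.26 TPM in the ESCs and at 4.37, 4.21 and 7.10 TPM in the EpiLCs. Smarca2 varied within the ESCs, where it was 2.84 times as high in replicate 2 as in replicate 3, and its log2 fold change of -0.28 (adjusted p = 0.568) became 0.16 without ESC replicate 2. The Smarca4 share of the ATPase transcripts was 96.03%, 93.6% and 97.8% in the ESCs and 96.9%, 97.1% and 95.2% in the EpiLCs, with overlap between groups.

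Smarcc1 (BAF155), the scaffold subunit that dominates in ESCs, had the highest mean level of the BAF genes. It was at 189, 191 and 196 TPM in the ESCs and at 207, 215 and 223 TPM in the EpiLCs, a log2 change of 0.11 ± 0.06 (standard error, adjusted p = 0.134), and was not called although its groups did not overlap. In limma on log2(TPM + 1) it was called higher (0.16, adjusted p = 0.0268). Smarcc2 (BAF170), the scaffold that is more prominent in differentiated cells, was at 18.7, 23.8 and 17.5 TPM in the ESCs and at 27.5, 30.1 and 29.6 TPM in the EpiLCs and rose with a log2 change of 0.49 ± 0.12 (standard error, adjusted p = 0.0134). The Smarcc1 share of the scaffold transcripts was 90.98%, 88.9% and 91.8% in the ESCs and 88.3%, 87.7% and 88.3% in the EpiLCs, lower in each EpiLC library than in any ESC library but still most of the total. Without ESC replicate 2, where Smarcc2 was highest among ESCs, Smarcc2 kept its call.

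Subunit genes that mark the different BAF assemblies differed in whether they passed the test. Arid2, which encodes BAF200 of the polybromo form (PBAF), averaged 33.8 ± 4.42 TPM in ESCs and 66.3 ± 5.58 TPM in EpiLCs (mean ± SD, n = 3 each) and rose, with a log2 fold change of 0.92, adjusted p = 8.45e-04. Brd7, another PBAF subunit gene, rose with a log2 fold change of 0.36, adjusted p = 0.0184, and Brd9, which marks the noncanonical form (ncBAF), with 0.36, adjusted p = 0.0272. Pbrm1 (-0.10, adjusted p = 0.209) and Phf10 (0.32, adjusted p = 0.108), also PBAF subunit genes, did not pass. Brd7 lost its call without ESC replicate 1 (adjusted p = 0.0595) and without EpiLC replicate 3 (adjusted p = 0.0597), and Brd9 without ESC replicate 1, ESC replicate 3, EpiLC replicate 1 or EpiLC replicate 3 (adjusted p up to 0.104). The ARID1 genes of canonical BAF did not pass. Arid1a (BAF250A) was at 115, 105 and 119.6 TPM in the ESCs and at 118, 132 and 113 TPM in the EpiLCs, a log2 change of 0.05 ± 0.08 (standard error, adjusted p = 0.647). Arid1b (BAF250B) was at 11.8, 9.68 and 10.6 TPM in the ESCs and at 12.7, 13.1 and 12.5 TPM in the EpiLCs, a log2 change of 0.21 ± 0.08 (standard error, adjusted p = 0.0838), without overlap between groups, and was called higher without ESC replicate 1 (adjusted p = 0.0485). The Arid1a share of their sum was 90.7%, 91.5% and 91.9% in the ESCs and 90.3%, 90.95% and 90.04% in the EpiLCs, with overlap between groups.

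Of the BCL7 genes, which encode small BAF subunits that contact the nucleosome core, Bcl7c passed the test, and the difference between the genes was not tested. Bcl7c was at 64.7, 56.3 and 60.4 TPM in the ESCs and at 71.6, 74.7 and 77.5 TPM in the EpiLCs and rose with a log2 change of 0.57 ± 0.10 (standard error, adjusted p = 0.00447). Its change was 0.30 in limma on log2(TPM + 1), smaller than on counts. Bcl7a was at 13.3, 10.3 and 16.4 TPM in the ESCs and at 12.4, 15.7 and 14.1 TPM in the EpiLCs, a log2 change of 0.02 ± 0.18 (standard error, adjusted p = 0.949), and Bcl7b was at 21.8, 27.4 and 20.6 TPM in the ESCs and at 20.7, 18.2 and 19.3 TPM in the EpiLCs, a log2 change of -0.31 ± 0.14 (standard error, adjusted p = 0.106), so neither passed. The Bcl7c share of TPM was 64.8%, 59.9% and 62.01% in the ESCs and 68.4%, 68.8% and 69.9% in the EpiLCs, and the direction was the same as in counts. The actin-related Actl6a (BAF53A) was at 177, 198 and 192 TPM in the ESCs and at 192, 187 and 204 TPM in the EpiLCs, a log2 change of -0.01 ± 0.07 (standard error, adjusted p = 0.896), whereas its neuronal counterpart Actl6b (BAF53B) had at most 2 counts in any library and was not tested. Smarcb1 and Smarce1, core subunit genes, did not pass, with adjusted p = 0.985 and 0.32, although Smarce1 was called higher without ESC replicate 1 (0.26, adjusted p = 0.0385).

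**Figure D3:**
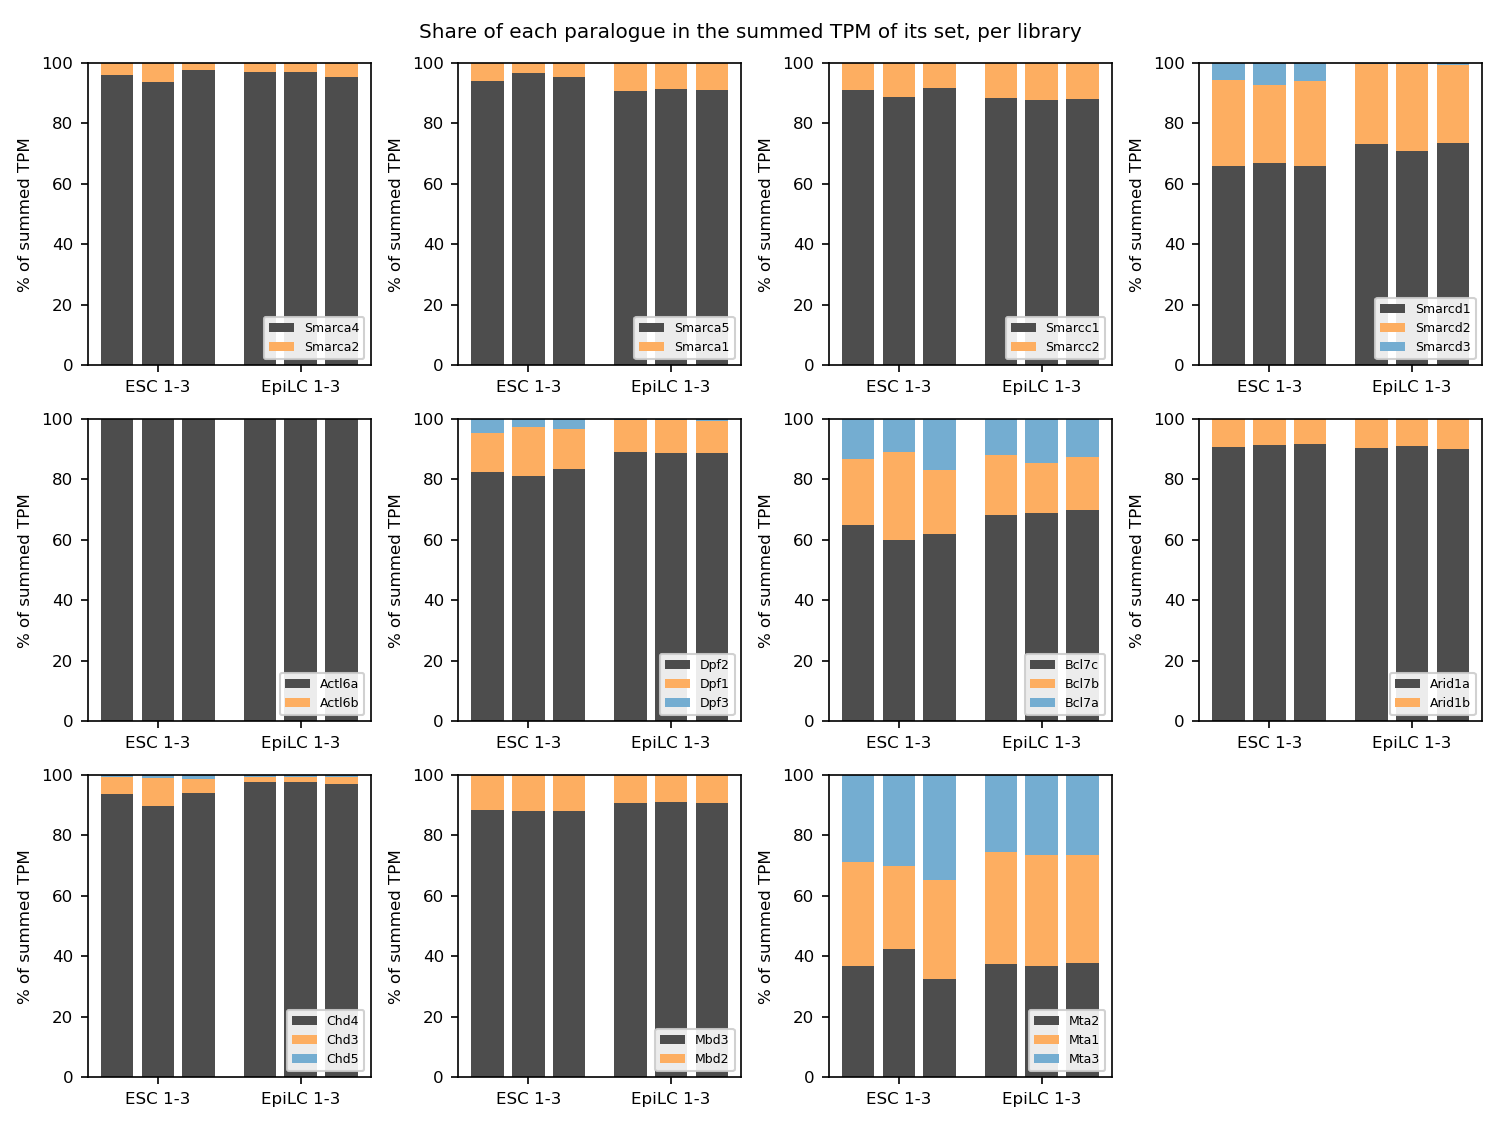
Stacked bars give the share of each gene in the summed TPM of its paralogue set, in percent, 1 panel a set and 1 bar for each of the 3 ESC and 3 EpiLC libraries. Smarcd1, Dpf2, Bcl7c, Chd4 and Mbd3 had higher shares and Smarca5 and Smarcc1 lower shares in every EpiLC library than in any ESC library, while Smarca4, Actl6a, Arid1a and Mta2 overlapped.

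ISWI is driven by either Smarca5 (SNF2H), the ubiquitous motor, or Smarca1 (SNF2L), and of this pair Smarca1 passed the test. Smarca5 had the highest level of all members, at 290.2, 282 and 312 TPM in the ESCs and at 297, 314 and 321 TPM in the EpiLCs, a log2 change of 0.02 ± 0.06 (standard error, adjusted p = 0.788). Smarca1 (chrX:47809370-47892613, minus strand) was at 18.4, 9.92 and 15.2 TPM in the ESCs and at 29.7, 29.7 and 31.1 TPM in the EpiLCs. Every EpiLC value was above every ESC value, and Smarca1 rose 2.00-fold with a log2 change of 1.00 ± 0.20 (standard error, adjusted p = 0.00772), although it stayed far below the Smarca5 level. ESC replicate 2 held the lowest value, and without it the log2 fold change was 0.79 (adjusted p = 0.00125). The Smarca5 share of the motor transcripts was 94.05%, 96.6% and 95.4% in the ESCs and 90.9%, 91.4% and 91.2% in the EpiLCs. Of the related SNF2 genes, Smarcad1, which acts on heterochromatin and at DNA ends, fell with a log2 fold change of -0.37, adjusted p = 0.00599, and Smarcal1, an annealing helicase at stalled forks, did not pass (-0.03, adjusted p = 0.85). Smarca5-ps, a pseudogene of Smarca5, fell with a log2 change of -0.90 ± 0.16 (standard error, adjusted p = 0.0044), but it shares sequence with Smarca5 and how reads were divided between them is uncertain.

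The NuRD motors included an abundant gene that did not pass the test and scarcer paralogues that fell. Chd4 (Mi-2β), the main NuRD motor of ESCs, was at 283, 269 and 301 TPM in the ESCs and at 274, 297 and 261 TPM in the EpiLCs, a log2 change of -0.09 ± 0.07 (standard error, adjusted p = 0.317). Chd3 (Mi-2α, chr11:69343273-69369499) was at 16.8, 28.3 and 15.4 TPM in the ESCs and at 5.25, 5.23 and 6.21 TPM in the EpiLCs and fell 3.74-fold, a log2 change of -1.90 ± 0.24 (standard error, adjusted p = 0.00111). Chd3 was highest in ESC replicate 2, as the fibroblast markers were, and 1.84 times as high there as in replicate 3. Without that library its log2 fold change was -1.58 (adjusted p = 1.85e-04), and the summed fibroblast markers of the other ESC libraries (251 and 89.8 TPM) were still above those of the EpiLCs (39.4 to 74.3 TPM). Chd5, a paralogue best known from neurons and testis, was at 2.44, 2.55 and 3.85 TPM in the ESCs and at 1.51, 1.86 and 1.65 TPM in the EpiLCs and fell with a log2 change of -0.87 ± 0.21 (standard error, adjusted p = 0.0154). Its call was lost without EpiLC replicate 1 (adjusted p = 0.0664) and without EpiLC replicate 3 (adjusted p = 0.0529). Over all alternative fits the log2 change of Chd5 ran from -1.01 to -0.55. The Chd4 share of the 3 transcripts was 93.7%, 89.7% and 94.0% in the ESCs and 97.6%, 97.7% and 97.1% in the EpiLCs. Chd3os, a noncoding transcript named for the strand opposite to Chd3, moved the other way and rose with a log2 change of 0.78 ± 0.17 (standard error, adjusted p = 0.00994), and since the counting was strand-specific the pair was counted apart.

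Of the other NuRD subunit genes, Mbd3, Mta1 and Mta2 rose by small amounts. Mbd3, which links the deacetylase and remodeling parts of NuRD, was at 136, 161 and 126 TPM in the ESCs and at 195, 187 and 189 TPM in the EpiLCs and rose with a log2 change of 0.38 ± 0.09 (standard error, adjusted p = 0.0146). Its alternative Mbd2, which binds methylated DNA, was at 17.9, 22.1 and 16.9 TPM in the ESCs and at 19.9, 18.7 and 19.6 TPM in the EpiLCs and did not pass, a log2 change of -0.09 ± 0.15 (standard error, adjusted p = 0.639). The Mbd3 share of their sum was 88.4%, 87.9% and 88.2% in the ESCs and 90.7%, 90.9% and 90.6% in the EpiLCs. Of the MTA scaffold genes, Mta1 was at 118, 86.03 and 118 TPM in the ESCs and at 154, 153 and 151 TPM in the EpiLCs and rose with a log2 change of 0.46 ± 0.13 (standard error, adjusted p = 0.0231). Mta2 was at 126, 133 and 116 TPM in the ESCs and at 155, 155 and 161 TPM in the EpiLCs and rose with a log2 change of 0.28 ± 0.06 (standard error, adjusted p = 0.0122). Mta3 was at 98.01, 94.4 and 124 TPM in the ESCs and at 105, 111 and 113 TPM in the EpiLCs and did not pass, a log2 change of 0.02 ± 0.12 (standard error, adjusted p = 0.921). All 3 MTA genes thus stood at similar TPM levels in ESCs, and the Mta2 share, 36.7%, 42.4% and 32.4% in the ESCs and 37.4%, 36.97% and 37.9% in the EpiLCs, overlapped between groups. The Mta1 share was 34.6%, 27.5% and 32.9% in the ESCs and 37.2%, 36.5% and 35.5% in the EpiLCs, and the Mta3 share was 28.7%, 30.1% and 34.7% in the ESCs and 25.4%, 26.5% and 26.6% in the EpiLCs, neither with overlap and in opposite directions. The call was lost for Mbd3 without ESC replicate 1 (adjusted p = 0.0532) and without EpiLC replicate 1 (adjusted p = 0.0571), and for Mta1 without EpiLC replicate 1, EpiLC replicate 2 or EpiLC replicate 3 (adjusted p up to 0.0713). Of the 8 NuRD genes, 3 rose, 2 fell and 3 did not pass, beside 22.6% of all genes higher and 22.8% lower.

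**Figure D4:**
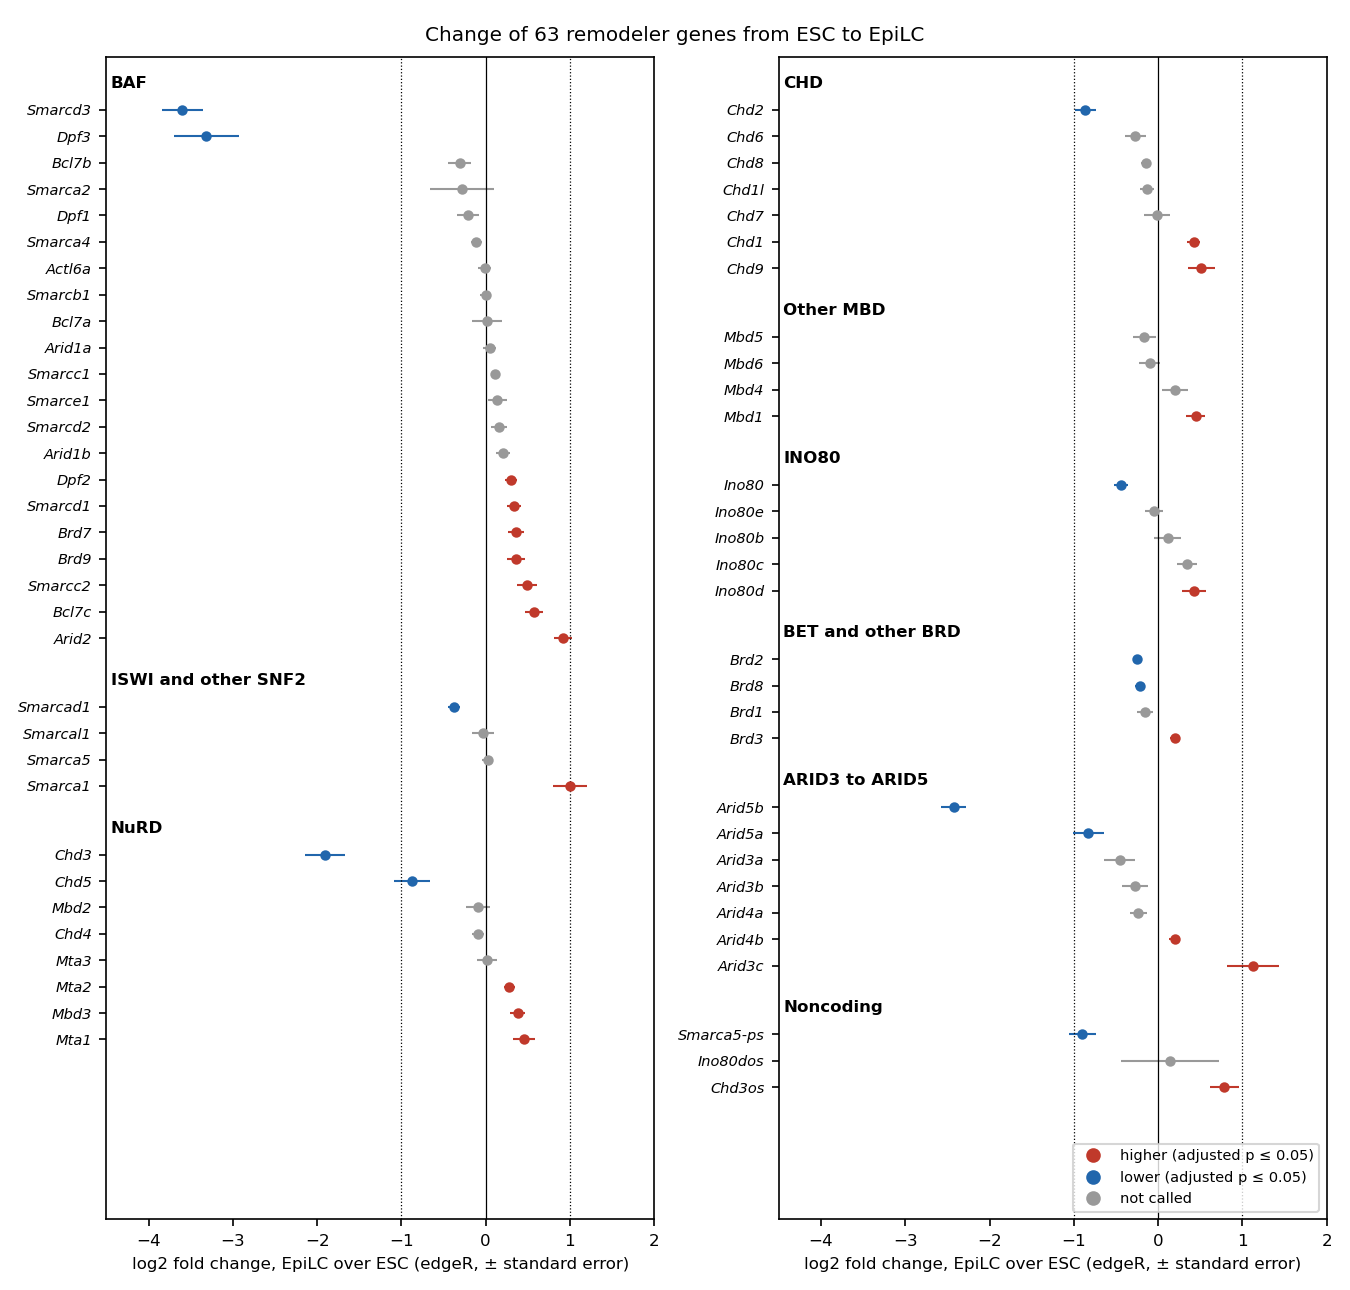
Log2 fold change of EpiLC over ESC with its standard error (edgeR) for 63 tested members by role, with dotted lines at a 2-fold change. Most members lie within the lines, and the 4 that lie left of them are Smarcd3, Dpf3, Chd3 and Arid5b.

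Outside NuRD, the CHD genes split. Chd1, a motor that works at transcribed, H3K4-methylated genes and supports the open chromatin of ESCs, had the highest mean of this group. It was at 72.5, 60.4 and 65.9 TPM in the ESCs and at 94.7, 94.4 and 87.01 TPM in the EpiLCs and rose with a log2 change of 0.42 ± 0.08 (standard error, adjusted p = 0.00503). Chd2, its nearest paralogue, fell with a log2 fold change of -0.87, adjusted p = 0.00194. Chd9 rose (0.51, adjusted p = 0.0362), whereas Chd6 (-0.27), Chd7 (-0.02), Chd8 (-0.14) and Chd1l (-0.13) did not pass. Chd6 was called lower without ESC replicate 2 (-0.39, adjusted p = 0.00936). Chd9 lost its call without ESC replicate 1, ESC replicate 2, EpiLC replicate 1 or EpiLC replicate 2 (adjusted p up to 0.121). Chd7 and Chd8 are known for developmental disorders that follow from loss of 1 copy. Chd1 and Chd2 thus moved in opposite directions, and their difference was not tested.

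Among the MBD genes outside NuRD, Mbd1 rose (0.44, adjusted p = 0.0194), a call lost without ESC replicate 1, EpiLC replicate 1, EpiLC replicate 2 or EpiLC replicate 3 (adjusted p up to 0.0688). Mbd6 had the highest mean of this group, at 20.3, 18.8 and 23.1 TPM in the ESCs and at 21.1, 22.2 and 17.1 TPM in the EpiLCs, and did not pass, a log2 change of -0.10 ± 0.12 (standard error, adjusted p = 0.551). Mbd4, a glycosylase that repairs deaminated methylated cytosine, and Mbd5 did not pass either (0.20 and -0.16). Mbd3l1 and Mbd3l2, known from testis, had 0 counts in all libraries. At this depth a count of 0 allows up to 3 counts a library, which is 0.0855 to 0.177 CPM.

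The INO80 genes showed no common direction. The motor gene Ino80 fell with a log2 fold change of -0.44, adjusted p = 0.00517, and the subunit gene Ino80d rose (0.43, adjusted p = 0.0414), a call lost without ESC replicate 1, ESC replicate 2, EpiLC replicate 1 or EpiLC replicate 2 (adjusted p up to 0.132). Ino80e had the highest mean, at 113, 137 and 116 TPM in the ESCs and at 111, 121 and 133 TPM in the EpiLCs, a log2 change of -0.05 ± 0.11 (standard error, adjusted p = 0.701). Ino80c (0.34, adjusted p = 0.0514) and Ino80b (0.11, adjusted p = 0.587) did not pass either. Ino80c, which had the ESC order of the fibroblast markers, was called higher without ESC replicate 2 (0.42, adjusted p = 0.0257) and in 6 of the 13 alternative fits in all. The antisense transcript Ino80dos was near the limit of detection and did not pass (0.14, adjusted p = 0.855).

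Among the BRD genes outside BAF, Brd2 and Brd8 fell and Brd3 rose. Brd2, which carries paired bromodomains and helps RNA polymerase to pass acetylated chromatin, had the highest mean of this group. It was at 241, 223 and 222 TPM in the ESCs and at 201, 209 and 189.8 TPM in the EpiLCs and fell with a log2 change of -0.25 ± 0.06 (standard error, adjusted p = 0.0115). Its paralogue Brd3 was at 63.2, 56.5 and 58.6 TPM in the ESCs and at 70.4, 70.6 and 71.7 TPM in the EpiLCs and rose with a log2 change of 0.20 ± 0.06 (standard error, adjusted p = 0.0339). For both genes the ESC and EpiLC values did not overlap. Brd8, a subunit of the TIP60 acetyltransferase complex, fell (-0.22, adjusted p = 0.0133), and Brd1, a scaffold of another acetyltransferase complex, did not pass (-0.15, adjusted p = 0.213) but was called lower without ESC replicate 2 (-0.23, adjusted p = 0.0469). Left-out libraries ended the call of Brd2 without EpiLC replicate 1 (adjusted p = 0.0552), of Brd8 without EpiLC replicate 1 (adjusted p = 0.0586) and without EpiLC replicate 2 (adjusted p = 0.0629) and of Brd3 without ESC replicate 2, ESC replicate 3, EpiLC replicate 1, EpiLC replicate 2 or EpiLC replicate 3 (adjusted p up to 0.0957).

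The ARID3 to ARID5 genes encode DNA-binding proteins with an ARID domain that are not BAF subunits, and they included Arid5b, the most abundant of the members that fell over 2-fold. Arid5b (chr10:68092523-68279355), which recruits the histone demethylase PHF2, was at 69.01, 75.7 and 99.7 TPM in the ESCs and at 15.7, 16.7 and 14.9 TPM in the EpiLCs. The groups were far apart, with means of 81.5 ± 16.1 TPM in ESCs and 15.7 ± 0.908 TPM in EpiLCs (mean ± SD, n = 3 each), and Arid5b fell 5.37-fold with a log2 change of -2.43 ± 0.15 (standard error, adjusted p = 9.90e-05). Arid5a, which stabilizes inflammatory mRNAs, fell from a low level (-0.83, adjusted p = 0.0101), a call lost without EpiLC replicate 1 (adjusted p = 0.0534). Its log2 change ran from -0.91 to -0.45 over the alternative fits. Arid3c (chr4:41723831-41731142) was at 0.710, 0.960 and 0.780 TPM in the ESCs and at 1.39, 2.38 and 1.77 TPM in the EpiLCs. It rose 2.18-fold with a log2 change of 1.13 ± 0.31 (standard error, adjusted p = 0.0224), but with as few as 12 counts a library it lost its call in 4 of 13 alternative fits, those without ESC replicate 1, ESC replicate 3, EpiLC replicate 2 or EpiLC replicate 3 (adjusted p up to 0.0878). Over the 13 fits the log2 change of Arid3c ran from 0.64 to 1.29, so it was under 2-fold in some. Arid3b had the highest mean of this group, at 79.4, 54.2 and 56.5 TPM in the ESCs and at 52.8, 51.1 and 58.8 TPM in the EpiLCs, and did not pass, a log2 change of -0.27 ± 0.15 (standard error, adjusted p = 0.174). Arid4b rose slightly (0.20, adjusted p = 0.048), a call lost with any 1 library left out (adjusted p up to 0.157), and Arid3a (-0.46) and Arid4a (-0.23) did not pass. Without ESC replicate 2 both were called lower, Arid3a with -0.60 (adjusted p = 0.0221, and with all libraries in DESeq2 -0.47, adjusted p = 0.0443) and Arid4a with -0.32 (adjusted p = 0.0175).

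Paralogue shares were computed within each library, so they do not depend on library scaling. Of 11 shares, 7 did not overlap between ESCs and EpiLCs, where 59.5% of all genes tested did not overlap in TPM. With 3 against 3 libraries the two-sided exact permutation p cannot go below 0.1, which all 7 had, and the Benjamini-Hochberg value over the 11 was 0.157, so none could pass. The differences of EpiLC minus ESC were 6.79 percentage points for Bcl7c, 6.57 for Dpf2, 6.27 for Smarcd1, 4.99 for Chd4, 2.59 for Mbd3, -2.48 for Smarcc1 and -4.19 for Smarca5. The predominant gene gained share in 5 of these sets, the exceptions being Smarcc1 and Smarca5. The remaining shares differed by 0.589 points (Smarca4, exact p = 0.7), -0.0224 (Actl6a, exact p = 0.4), -0.925 (Arid1a, exact p = 0.2) and 0.230 (Mta2, exact p = 0.8), all two-sided permutation tests. With 1 library left out the Smarca4 difference ran from -0.527 (without ESC replicate 2) to 1.59 points (without ESC replicate 3), and the Mta2 difference from -2.16 (without ESC replicate 3) to 2.85 points (without ESC replicate 2), so neither kept its direction.

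Subunits of the same complexes, and related readers, that the symbols did not capture were examined as a second list. Of 67 such partner genes, all tested, 13 rose, 15 fell and 39 did not pass (41.8% called, near the 45.4% of all genes), and only Bicral passed with a change over 2-fold (20.2% of all genes). Bicral, the GLTSCR1L subunit of ncBAF, was at 24.7, 28.9 and 34.04 TPM in the ESCs and at 11.7, 14.8 and 12.7 TPM in the EpiLCs and fell with a log2 change of -1.22 ± 0.14 (standard error, adjusted p = 8.37e-04), while the ncBAF gene Brd9 rose. The further partners named here were chosen after their values were seen. Of 10 NuRD partners 5 rose, namely Cdk2ap1 (0.91), Zmynd8 (0.68), Hdac2 (0.31), Hdac1 (0.18) and Gatad2a (0.18), and 3 fell, namely Rbbp7 (-0.66), Gatad2b (-0.65) and Sall4 (-0.27), all as log2 fold changes. Cdk2ap1, a small NuRD subunit, was at 312, 307 and 282 TPM in the ESCs and at 579, 578 and 595 TPM in the EpiLCs. Of 8 BAF partners Ss18 (0.43) and Bcl11a (0.79) rose. Of 14 INO80, SRCAP and p400 partners Actr5 (0.90) and Mcrs1 (0.29) rose and Ep400 (-0.67), a motor for H2A.Z deposition, fell. Of 10 ISWI partners Bptf (0.23) rose and Baz2a (-0.61), Baz2b (-0.38) and Hmgxb4 (-0.34) fell. Among 13 other bromodomain genes Trim33 (0.97), Zmynd11 (0.66) and Trim24 (0.42) rose, and Brpf3 (-0.78), Brwd1 (-0.57), Taf1 (-0.51) and Trim28 (-0.29) fell. Of 4 other ARID genes Kdm5b (-0.56) and Kdm5a (-0.22) fell, of 3 other MBD genes Setdb1 (-0.29) fell, and of 5 other SNF2 motor genes, among them Hells and Atrx, the lowest adjusted p was 0.0619. Of the 28 partners called, 16 kept the call in every alternative fit run (Ss18, Bicral, Hdac2, Rbbp7, Gatad2b, Cdk2ap1, Zmynd8, Actr5, Ep400, Brpf3, Trim24, Trim33, Zmynd11, Taf1, Kdm5b and Setdb1), and the other 12 lost it in some of the 13. These were Baz2b in 10, Kdm5a in 10, Hmgxb4 in 7, Bptf in 6, Sall4 in 6, Gatad2a in 5, Mcrs1 in 5, Hdac1 in 4, Brwd1 in 3, Baz2a in 2, Trim28 in 2 and Bcl11a in 1.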

How the data were processed

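RNA-seq of ESC (n = 3) and EpiLC (n = 3) wild-type libraries was used. Per the paper's methods and the submitters' notes, the authors trimmed reads (cutadapt 1.16), aligned them and counted them strand-specifically per RefSeq gene on mm10 with STAR 2.5.2a and RSEM 1.3.0, and tested with DESeq2 1.16.1. The authors deposited expected counts and TPM (RSEM's abundance per transcript length) per gene. Labels give 48 h for EpiLCs, and a culture description gives another time.

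Members and lists were chosen with earlier results of these data known. Expected counts were rounded and tested with edgeR 4.0.16 in R 4.3.3 (TMM, filterByExpr, quasi-likelihood), on 14468 genes with Benjamini-Hochberg adjustment and a threshold of 0.05. Standard errors were derived from the F statistic and are approximate. Levels and paralogue shares are from TPM. Per-library values are given for members that passed with a log2 fold change of at least 1 in size, for paralogue sets and for the most abundant gene of each role, and partners were to be named if they passed at that size. Further partners are named after their values were seen. Shares were compared by exact permutation. One member, counted in the totals, and the shares that need it are not reported here. The scripts were tested on simulated data. Alternatives were DESeq2 1.42.0, upper-quartile scaling, other filters, limma 3.58.1 on log2(TPM + 1) and log2(TPM + 0.1), a replicate block and leaving out each library. Library totals were 16967741 to 35096210, and counting limits cover counting error only.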

Additional observations from a re-analysis of the deposited data

How the results depend on the processing

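Of the 32 members called, 16 kept call and direction in all 13 alternative fits, 16 lost the call in at least 1, and 0 turned direction. Smarcd3, Dpf3, Arid5b, Chd3, Smarca1, Arid2, Chd1, Chd2 and Mta2 were among those that kept it. Of the 32 not called, 9 were called in some fit and 13 changed sign in some fit. Members called higher numbered 10 to 16 and lower 9 to 18 with 1 library left out (10 and 9 without EpiLC replicate 1, 11 higher without ESC replicate 1, 12 higher without EpiLC replicate 2 or 3). All genes called higher then numbered 2144 to 3572 and lower 2100 to 3609, and partner genes 8 to 17 and 8 to 19, the lowest counts being those without EpiLC replicate 1 or 2, each of these fits having fewer libraries. The main fit did not pair samples by replicate number. Correlations of deviations were 0.01, 0.19 and 0.17 for the same numbers 1, 2 and 3. Between different numbers they ran from -0.21 to 0.084, so those of numbers 2 and 3 were the highest. With the replicate number as a block, 14 members were higher and 14 lower, Arid4b, Brd3, Brd9, Chd9 and Ino80d losing the call and Arid3a gaining one (-0.43, adjusted p = 0.0459).

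Sign changes were of members not called, and the cause was not tested. With 1 library left out, log2 fold changes ranged from -0.078 to 0.029 (Actl6a), -0.0088 to 0.10 (Arid1a), -0.14 to 0.21 (Bcl7a), -0.16 to 0.16 (Chd7), -0.16 to 0.82 (Ino80dos), -0.13 to 0.031 (Ino80e), -0.18 to 0.060 (Mbd2), -0.17 to 0.0052 (Mbd6), -0.062 to 0.16 (Mta3), -0.60 to 0.16 (Smarca2), -0.011 to 0.081 (Smarca5), -0.15 to 0.068 (Smarcal1) and -0.039 to 0.018 (Smarcb1). In limma on log2(TPM + 1) and log2(TPM + 0.1) they were 0.039 and 0.039 (Actl6a), 0.056 and 0.059 (Chd7), 0.038 and 0.040 (Mbd2), 0.027 and 0.030 (Smarcal1) and 0.052 and 0.052 (Smarcb1). With no filter Actl6a was 0.0020 and Smarcb1 0.013, with upper-quartile scaling Actl6a was 0.014, Chd7 0.0069 and Smarcb1 0.024, and with the block Chd7 was 0.0074. Shares of counts in place of TPM differed by 4.77 points (Smarcd1), 4.53 (Dpf2), 11.7 (Bcl7c) and 3.16 (Mbd3), in the directions of TPM.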

Other observations

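Expected counts per TPM of Bcl7c, relative to the ESC mean, ran from 0.96 to 1.05 over the 3 ESC libraries and from 1.21 to 1.28 over the 3 EpiLC libraries. This ratio follows the effective length that RSEM gave the gene, and it did not overlap between groups. A shift past 0.2 on the log2 scale without overlap was seen in 1 of 59 members, Bcl7c, and in 19 of 10671 genes (0.178%). The transcripts behind it were not analysed here.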
